A study of Caenorhabditis elegans with 2 samples.

Results

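The 41 genes described here encode proteins that fold other proteins or steer the chaperones that do. They were taken by name from the 19973 protein-coding genes of the nuclear chromosomes in the WBcel235 gene models: 29 dnj genes, the 8 cct genes, hsp-60, bag-1, sti-1 and unc-45. Each gene was given the region with the highest deposited signal among ranked regions whose summit, the position of strongest enrichment, lay from 1000 bp upstream to 200 bp downstream of its annotated 5′ end. The rule itself uses names, and it was drawn up with earlier results of these data known.

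The regions came from chromatin immunoprecipitation followed by sequencing (ChIP-seq), in which DNA bound to a tagged protein is recovered with an antibody and read. The material was whole Caenorhabditis elegans of strain OP719 at the L4 larval stage, aged 66 hours and synchronised by bleaching and starvation as L1 larvae, in 2 biological replicates of 1 group. All animals carried the mutation unc-119(tm4063) and the transgene wgIs719, which holds unc-119(+) and tag-97 fused to TY1, EGFP and FLAG tags, and an anti-GFP antibody was used. The labels connect the insertion to svh-5. The tagged copy is an added transgene, tissues of the animal cannot be told apart, and neither a second strain nor a control immunoprecipitation was analysed here, so genes were compared with other genes and not with another condition.

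DnaJ proteins share a J domain that stimulates ATP hydrolysis by HSP70, and through it they hand unfolded clients to that chaperone. The CCT complex is a double ring of different subunits in the cytosol that folds actin and tubulin, and HSP-60 forms the corresponding chamber of the mitochondrial matrix together with a small lid protein, HSP10. BAG-1 releases nucleotide from HSP70, STI-1 links HSP70 to HSP90, and UNC-45 is the chaperone of muscle myosin.

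The joint ranking orders regions that were matched between its inputs. Of the 41 genes, 4 had a region in the joint thresholded list, which holds regions with a global irreproducible discovery rate (IDR, the expected share of regions that do not repeat) of at most 0.01. These were dnj-28, dnj-13, bag-1 and hsp-60, or 9.76% of the members, against 0.756% of all protein-coding genes (151 of 19973). The next member by signal, cct-8, was outside that list with a global IDR of 0.0168. Any ranked joint region was found at 35 members (85.4%, against 80.6% of all genes). Over those 35 the median signal was 22.7, against 23.4 over the 16108 protein-coding genes with one, and over the 31 outside the thresholded list it was 21.1. The signal is the authors' own value per region, on a scale the sources used here do not state. Members reached a signal above the median of all genes in 17 of 41 cases (41.5%, against 40.3% of all genes). In the upper tail 5 of 35 members exceeded the 99th percentile of genes with a ranked region, which was 63.4, as 1.01% of those genes did. Between cct-8 at 67.1 and the next member, dnj-16 at 37.2, no member had a value.

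**Figure D1:**
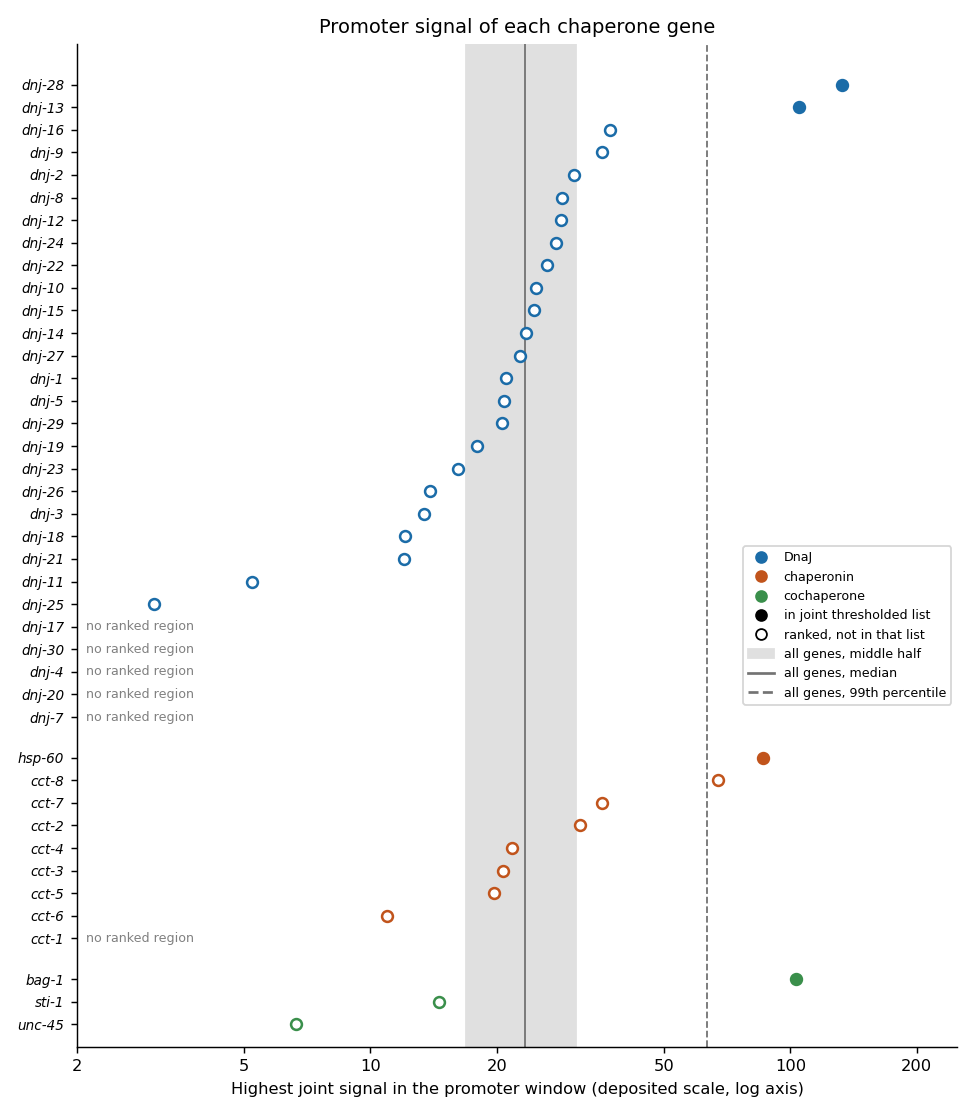
The highest joint signal in the promoter window of each of the 41 genes, on a log axis in deposited units. Blue points are DnaJ, orange chaperonin and green cochaperone genes, filled where in the joint thresholded list; the grey band runs from the 25th to the 75th percentile of all protein-coding genes (16.9 to 30.8), the solid line is their median (23.4) and the dashed line their 99th percentile (63.4). The 5 points right of the dashed line are dnj-28, dnj-13, bag-1, hsp-60 and cct-8, while 16 members fall inside the band.

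**Figure D2:**
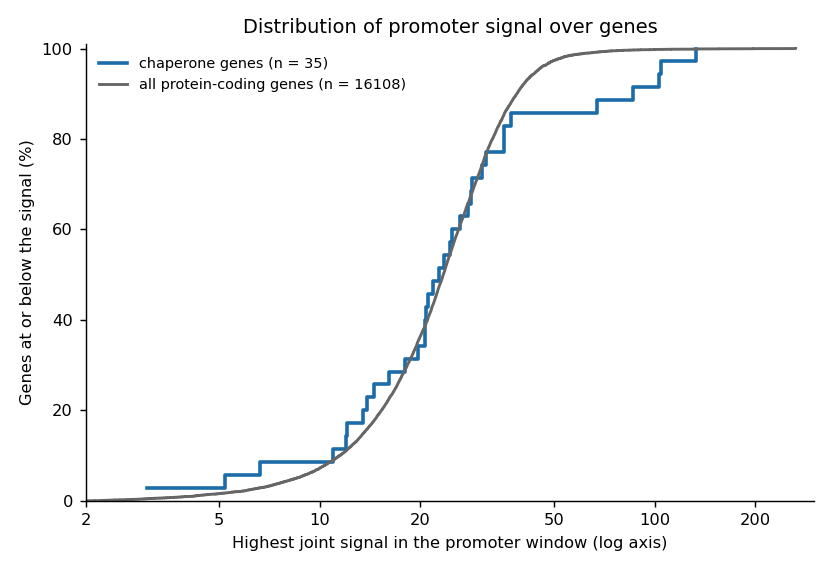
The percentage of genes at or below each highest joint signal (log axis), for the 35 members with a ranked region (blue) and for all 16108 protein-coding genes with one (grey). Up to a signal of about 37.2 the curves run close together, and above it the blue curve lies lower because 5 members have signals of 67.1 to 133.

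The called promoter regions of dnj-13 and hsp-60 and the one at cct-8, which was not called, are printed as examples of the 5 highest promoter regions of members. Those of dnj-28 and bag-1, both higher than that of hsp-60, are not printed. Each is the whole 296-bp region on the plus strand, 5′ to 3′, from the RefSeq genome of the same assembly as the lists (WBcel235, ce11 coordinates). Capitals mark matches on either strand to GAANNTTC or to TTCNNGAA, which are pairs of the inverted GAA units that heat shock factor is known to bind, or to 1 of 5 words. These words are GGCCTA, then CTAGGC, then GTACAC, then GGCCAC and lastly CTGCGC. The regions lie at chrII:11545331-11545626 (dnj-13), chrIII:1618989-1619284 (hsp-60) and chrIV:1094190-1094485 (cct-8).
dnj-13: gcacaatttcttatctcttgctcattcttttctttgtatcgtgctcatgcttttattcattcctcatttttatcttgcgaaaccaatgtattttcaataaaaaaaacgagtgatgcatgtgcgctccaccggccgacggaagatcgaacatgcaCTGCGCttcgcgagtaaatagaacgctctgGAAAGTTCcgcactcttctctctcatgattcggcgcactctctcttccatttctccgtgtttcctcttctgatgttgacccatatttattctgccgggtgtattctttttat
hsp-60: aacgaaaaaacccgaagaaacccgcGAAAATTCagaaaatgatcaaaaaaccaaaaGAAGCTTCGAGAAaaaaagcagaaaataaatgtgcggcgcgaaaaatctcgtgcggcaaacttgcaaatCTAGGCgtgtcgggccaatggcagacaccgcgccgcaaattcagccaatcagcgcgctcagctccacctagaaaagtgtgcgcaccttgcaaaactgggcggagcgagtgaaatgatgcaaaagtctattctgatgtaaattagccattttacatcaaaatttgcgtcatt
cct-8: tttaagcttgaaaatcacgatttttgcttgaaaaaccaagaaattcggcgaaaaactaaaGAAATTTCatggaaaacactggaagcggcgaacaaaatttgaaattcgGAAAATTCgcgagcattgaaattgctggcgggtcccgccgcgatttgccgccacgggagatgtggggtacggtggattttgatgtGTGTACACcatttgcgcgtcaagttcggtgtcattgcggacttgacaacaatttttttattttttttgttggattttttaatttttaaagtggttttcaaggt

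Among the J-domain genes, dnj-28 had the highest joint signal. Its product is annotated only as a J domain-containing protein. The joint signal was 133 (chrI:2996211-2996506), with 64.2 in the list of replicate 1 and 63.5 in that of replicate 2, and the global IDR was 0.000463. It ranked 21st among the 16108 genes. The region passed the threshold in each replicate's own list as well. Its summit lay 129 bp upstream of the 5′ end of dnj-28 and 445 bp upstream of that of supr-1, the divergent neighbour. Part of the region's sequence was repeated: it had 78 alignments in the genome, itself included, over at least 100 bp at 80% identity or more. Alignments were not merged, so 1 place could be counted more than once. Away from the region itself, alignments had a median length of 150 bp and none was longer than 203 bp of its 296 bp. Their identity ran from 81.6% to 99.3%, with a median of 88.1%. Whether they cover the summit was not examined. Of the 77 other alignments, 55 overlapped a ranked joint region and 7 a thresholded one. The highest signal at those 55 had a median of 25.4 and a range of 3.18 to 136. How reads that align to several places were counted is not given in the sources used here, and their part in the value at dnj-28 was not tested.

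The second J-domain gene with a called region was dnj-13, a cytosolic partner of HSP70 that takes part in dissolving protein aggregates. The joint signal was 105, with 46.5 in replicate 1 and 50.9 in replicate 2 and a global IDR of 0.000801. The region passed in replicate 2's own list (IDR 0.00451) and not in replicate 1's (IDR 0.0558). Its summit lay 222 bp upstream of the 5′ end. The sequence printed above occurred once in the genome. The gene lies within the span of dhgd-1 on the opposite strand. The summit fell in an intron of dhgd-1 and in an exon of the noncoding RNA genes F54D5.22, annotated on both strands at the same place. The 5′ end of F54D5.9, an F-box gene, was 651 bp away from the same summit. A second ranked region in the dnj-13 window had a signal of 17.8.

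Other cytosolic J-domain partners of HSP70 had no called region, where 0.756% of all protein-coding genes had one. At dnj-12 the joint signal was 28.4 (replicates 14.5 and 16.18), and at dnj-19 it was 17.95, with no overlapping region in either replicate's own list. Genes of the endoplasmic reticulum are among the members too. The disulphide reductase gene dnj-27 had 22.7 (replicates 18.1 and 12.03), the translocation factor gene dnj-29 had 20.6 (replicates 13.4 and 12.305), dnj-20 had no ranked joint region, and dnj-8, annotated as DnaJ homolog subfamily C member 16, had 28.6, above the median of all genes. The mitochondrial genes dnj-10 and dnj-21, the second a subunit of the inner-membrane import motor, had 24.8 and 12.02.

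The remaining J-domain genes spread over the range of ordinary promoters. In all, 24 of the 29 had a ranked joint region, a share near the 80.6% of all protein-coding genes. Of these, 22 were outside the thresholded list, led by dnj-16 with 37.2 and dnj-9 with 35.5. At dnj-16 (global IDR 0.257) the overlapping replicate regions had 12.198 and 22.8, but their summits lay 260 and 28 bp from the joint summit, so the values are not from the same place. The joint summit was 17 bp from the 5′ end of the neighbour spp-28 but 783 bp from that of dnj-16. At dnj-9 (global IDR 0.266) the replicates had 16.3 and 14.7. At dnj-2 the joint signal was 30.5 (replicates 13.0 and 16.407, global IDR 0.416), with the summit 965 bp upstream and 53 bp from the 5′ end of B0035.3. The cysteine string protein gene dnj-14, whose product works at synapses, had 23.4, and the gene of the clathrin uncoating factor auxilin, dnj-25, had the lowest joint signal of any member, 3.05, although the between-replicate ranking gave it 20.3 and replicate 1's own list 10.5. The members dnj-24, dnj-22, dnj-15, dnj-1 and dnj-5 had between 27.7 and 20.8, and dnj-23, dnj-26, dnj-3, dnj-18 and dnj-11 between 16.12 and 5.22. Another 5 had no ranked joint region in the window: dnj-4, dnj-7, dnj-17, dnj-20 and dnj-30. The ranking lists only regions matched between its inputs, so a missing value is not a value of 0. In the between-replicate ranking dnj-20 had a signal of 22.5 and dnj-4 one of 12.06, and in replicate 2's own list dnj-7 had one of 8.85.

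Of the 9 chaperonin genes 1 had a called region, against 0.756% of all protein-coding genes. It was at hsp-60. The joint signal was 86.0, with 50.5 in replicate 1 and 40.96 in replicate 2 and a global IDR of 0.00215. Neither replicate's own list called it, with IDR values of 0.0236 and 0.101, while the conservative list, drawn from the between-replicate ranking, did (IDR 0.00255). The summit was 605 bp upstream of hsp-60 and 208 bp upstream of Y22D7AL.10 on the opposite strand. RefSeq annotates Y22D7AL.10 as the mitochondrial 10 kDa heat shock protein, so 1 region lay between the genes of the chaperonin and of its lid protein and was nearer to the second. A weaker ranked region, 127 bp upstream of hsp-60, had a signal of 22.2.

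The 8 CCT subunit genes, whose products assemble into 1 complex, covered a wide range of signals. None was in the joint thresholded list, the usual outcome for 8 genes where 0.756% of all protein-coding genes were called. The highest was cct-8, for the theta subunit, with 67.1 (replicates 33.3 and 32.3) and a global IDR of 0.0168, above the threshold, whereas hsp-60 was the lowest member inside it. No thresholded list held cct-8, and its IDR was 0.485 in replicate 1's own list and 0.835 in replicate 2's. Its summit lay 418 bp upstream of cct-8 and 203 bp upstream of the divergent thioredoxin-domain gene Y55F3AR.2. The subunit genes cct-7 and cct-2 followed with 35.5 (replicates 20.5 and 21.6, global IDR 0.290) and 31.5 (17.5 in replicate 2 and no region in replicate 1, global IDR 0.477). The cct-7 summit, 264 bp upstream of that gene, was nearer to the 5′ ends of T10B5.4 (175 bp) and of the noncoding RNA gene T10B5.13 (2 bp), in whose exon it fell. The cct-2 summit, 496 bp upstream, was also in the window of B0457.2, and its region had 4 alignments in the genome, itself included. Below the median of all genes came cct-4 with 21.7, cct-3 with 20.7, cct-5 with 19.7 and cct-6 with 10.9. At cct-1 none of the ranked lists had a region in the window.

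Of the 3 cochaperone genes 1 was called, against 0.756% of all protein-coding genes in the joint thresholded list. This was bag-1, which every thresholded list held. It had a joint signal of 103 (chrI:6564485-6564780), with 47.8 in replicate 1 and 45.8 in replicate 2 and a global IDR of 0.000859. The summit was 182 bp upstream of bag-1 and in the promoter window of no other gene. The genes sti-1 and unc-45 had joint signals of 14.5 and 6.65, both under the 25th percentile of all genes, 16.9. At unc-45 the between-replicate ranking gave a higher value, 21.4, from a region missing from the joint ranking.

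The 5 highest members differed in how far they rose above their surroundings. Joint signal was 8.54 times the median of ranked regions within 10 kb at dnj-28, 6.44 times at bag-1, 6.24 times at dnj-13 and 4.73 times at hsp-60, and 3.44 times at cct-8. A ratio above 4 was found for these 4 of 35 members (11.4%) and for 0.584% of all genes with a value. The median ratio was 1.24 over members and 1.27 over all genes. Their summits lay 129 to 605 bp upstream of the 5′ end, in a window that reaches further upstream than downstream. The best regions of 15 of the 35 members (42.9%) also lay in the window of another protein-coding gene, against 19.9% for all genes, and those of 3 of the 4 called members did so, against 48.3% of all called genes.

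**Figure D3:**
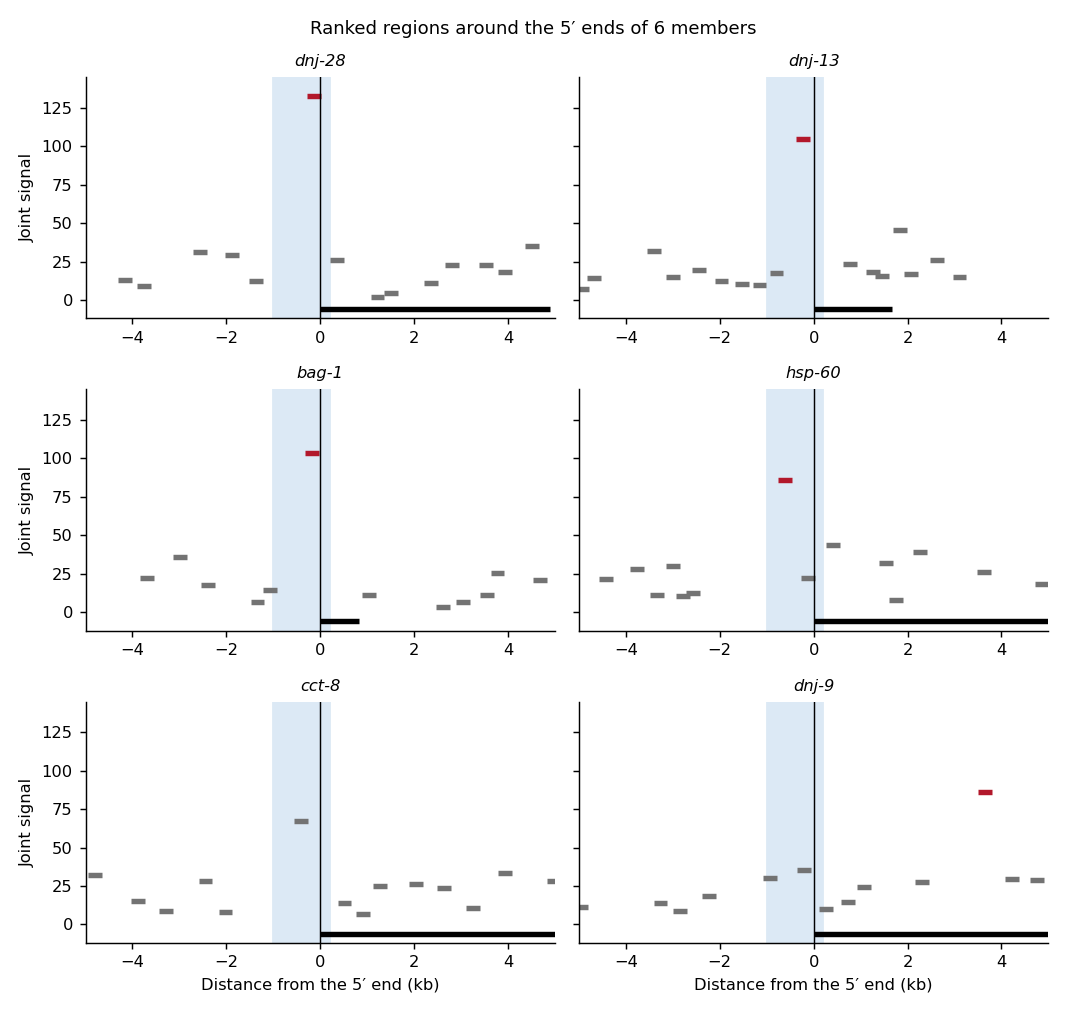
Joint signal of ranked regions (each bar spans a region, 296 bp) against distance from the 5′ end in kb, for dnj-28, dnj-13, bag-1, hsp-60, cct-8 and dnj-9, with transcription drawn to the right. Red bars are in the joint thresholded list, the blue band is the promoter window and the black bar the gene. At the first 4 genes 1 red bar of 86.0 to 133 stands upstream of the 5′ end among lower grey bars, and at dnj-9 the red bar, 86.2, lies inside the gene.

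Which inputs the joint IDR compares, or the IDR of a replicate's own list, is not given here. The joint signal is 1 value per region over both replicates, so likeness between replicates at the 5 highest members is a description only. Their replicates' own summits lay 13 to 44 bp from the joint summit. Ordinary members could be as close, as at dnj-2 (6 and 7 bp) and dnj-12 (3 and 12 bp), or far apart, as at dnj-16. Among genes with a region in the window, the share with a higher signal in replicate 1 was 0.218% for dnj-28, 0.587% for dnj-13, 0.512% for bag-1, 0.426% for hsp-60 and 1.89% for cct-8. In replicate 2 it was 0.165%, 0.278%, 0.391%, 0.625% and 2.08% in the same order. These shares use each list alone, since signals were not scaled between replicates. Among the other 30 members with a ranked joint region, 12 had an overlapping region in both replicates' own lists. Any region in the window was listed for 22 members in replicate 1 (53.7%, against 52.9% of all genes) and for 25 in replicate 2 (61.0%, against 57.7%). The between-replicate ranking listed 31 (75.6%, against 76.3%), and it or the joint ranking 37 (90.2%, against 85.2%). By overlap with the joint region, 17 of all 35 were listed in both, 1 in replicate 1 alone, 7 in replicate 2 alone and 10 in neither. That overlap was counted for members only. No share over all genes therefore stands beside these counts or beside the 12 of 30.

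**Figure D4:**
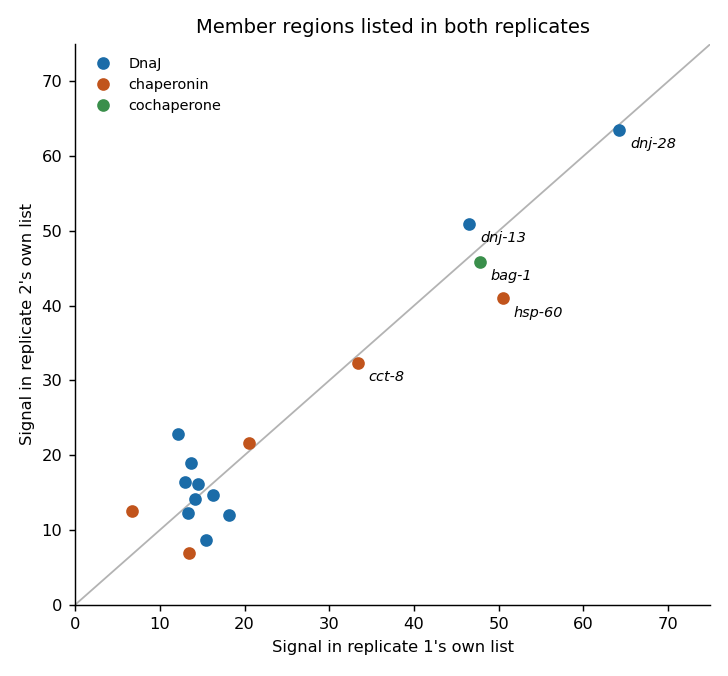
Signal of the overlapping region in replicate 2's own list against that in replicate 1's, in deposited units, for the 17 members with both; the line marks equal values. The 5 named genes lie along the line from cct-8 (33.3 and 32.3) to dnj-28 (64.2 and 63.5), and the other 12 lie below 25 in both replicates with no clear order.

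Both replicates' thresholded lists held 2 members (4.88%, against 0.105% of all genes). Called in replicate 1 were 2 members, dnj-28 and bag-1 (4.88%, against 0.195% of all genes), and in replicate 2 they were joined by dnj-13 (3 members, 7.32%, against 0.18%). The conservative list held the same 4 members as the joint list (9.76%, against 0.461%), as did the joint ranking read at an IDR of 0.01 (4 members, against 0.766%). At a looser global IDR of 0.05 the joint ranking added cct-8 (5 of 41 members, against 1.68% of all genes). In that between-replicate ranking the replicate signals had a Spearman correlation of 0.490 over 31 members and 0.176 over 15246 genes. Outside the joint thresholded list it was 0.231 over 27 members and 0.153 over 15096 genes. Genes are not independent replicates, they share both libraries, and some share a region.

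Sequence matches differed from region to region, and no word was common to the leading members. A match to GAANNTTC was in the regions of dnj-13, bag-1 and hsp-60 and not in that of dnj-28, that is in 3 of 4, and in those of 12 of 35 members with a ranked region (34.3%). Of all 118165 ranked joint regions of 296 bp, 19.9% held one, and of thresholded regions of that length 19.7%. In the dnj-13 sequence printed above the match is GAAAGTTC, 39 bp from the summit. In that of hsp-60 a GAANNTTC and a TTCNNGAA match overlap in one run of capitals (chrIII:1619045-1619057), 89 and 84 bp from the summit. Another GAANNTTC match lies 120 bp from it. The regions of cct-8 and bag-1 had matches too. TTCNNGAA was in the regions of 11 of 35 members (31.4%), against 19.1% of ranked regions. Near the summit (within 50 bp) GAANNTTC was in 4 of 35 members (11.4%, against 7.13% of ranked regions) and 1 of the 4 called. There TTCNNGAA was in 5 of 35 (14.3%, against 6.78%) and 0 of the 4 called. The ranked regions are those of the whole genome and not the highest promoter region of each gene. Both motifs read the same on either strand, and a match is not evidence of a bound site.

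Within 50 bp of the summit, CTGCGC was found in 2 of 35 members, dnj-13 and the low unc-45, against 7.17% of thresholded and 1.43% of all ranked joint regions. GTACAC was found in 3 members, bag-1, cct-8 and the low cct-5, against 8.41% and 2.64%. GGCCAC was found in 2 members, cct-7 and the low dnj-18, against 9.66% and 2.29%. CTAGGC was found in 1 member, hsp-60, against 8.72% and 2.05%. The region of dnj-28 held none of the 5 words. In cct-8 the match is part of GTGTACAC, which reads the same on both strands. GGCCTA, held by 10.3% and 2.27%, was in no such window of a member. The 5 words had been picked from the same list of regions, so these matches are a description only. GC content was 47.6% at dnj-28, 42.2% at dnj-13, 37.5% at bag-1, 44.6% at hsp-60 and 39.9% at cct-8, against a median of 37.5% over all ranked joint regions of 296 bp. The median over the 35 members with a ranked region was also 37.5%.

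A called region outside promoter windows was found in 1 member. It lay in an intron of dnj-9, 3646 bp downstream of the 5′ end (chrII:4855554-4855849), with a joint signal of 86.2, replicate signals of 45.9 and 40.97 and a global IDR of 0.00232. It was 4.26 times the median of its surroundings and was in the conservative list but in neither replicate's own. Its sequence occurred once in the genome and held none of the 7 motifs. Such regions inside the gene and beyond the window were found in 110 protein-coding genes, 0.551%.

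Other chaperone genes were set beside the members, in lists taken by name and with earlier results of these data known. The number called in each list stands against 0.756% of all protein-coding genes. Of 9 HSP70 and HSP110 genes, 2 were called, F44E5.4 and F44E5.5, which share 1 region (264, replicates 133 and 130). Their list had a median of 41.7. In it 7 of the 9 were above the median of all genes, against 40.3% of all genes, with F44E5.4 and F44E5.5 counted separately. Among the 7 were hsp-1, the constitutive cytosolic HSP70 gene, with 49.8 (replicates 30.8 and 15.6), and the mitochondrial hsp-6 with 44.1 (replicates 17.3 and 22.4). The lowest of the list was stc-1 with 9.98. Of 10 genes of HSP90 and its cochaperones 1 was called, ahsa-1, whose product stimulates the HSP90 ATPase (58.3, replicates 33.6 and 29.0, global IDR 0.00843). At hsp-90 itself there was no ranked joint region. The median of that list was 30.2 and its lowest signal 8.96, for pph-5.

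Small heat shock protein genes had no called region in 14 genes, a median of 16.3 over 10 with a value, and signals from 42.2 at hsp-43 to 4.72 at hsp-12.1. Prefoldin subunits, which deliver clients to CCT, ranged from 39.4 at pfd-1 to 6.15 at pfd-5 with none called. The only called gene in that list of 7 was Y22D7AL.10, through the region it shares with hsp-60. Of 4 genes in the heat shock factor pathway none was called. The highest was hsb-1, for a heat shock factor binding protein, with 28.2, the lowest was ddl-2 with 13.5, and hsf-1 itself had no ranked joint region. Of 7 genes of nucleotide exchange and BAG partners bag-1 alone was called, unc-23 came next with 39.0 (replicates 7.68 and 30.9), and hsp-70 was lowest with 19.2.

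**Figure D5:**
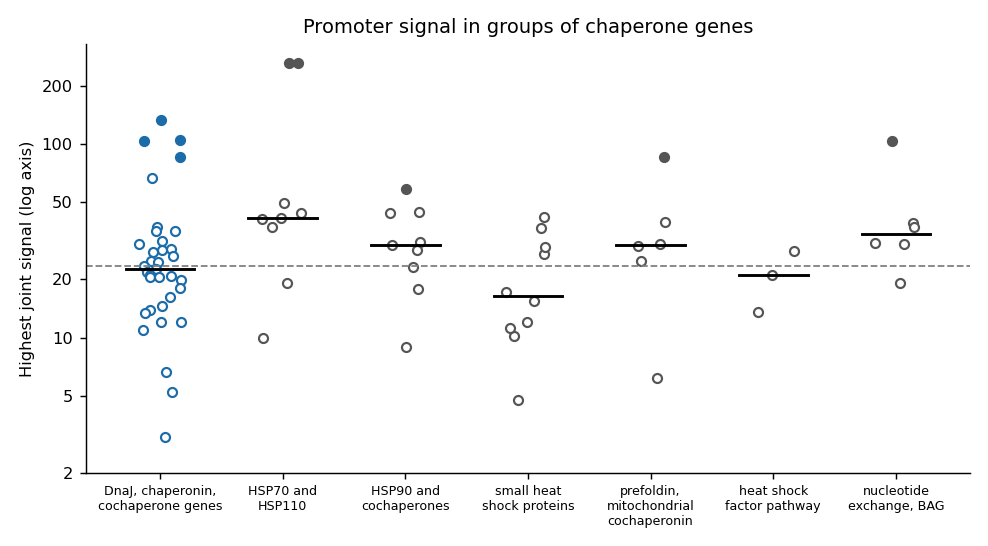
The highest joint signal in the promoter window (log axis) of each gene with a value, in the 41 members (blue) and 6 lists of other chaperone genes (grey). Filled points are in the joint thresholded list, bars are list medians and the dashed line is the median of all protein-coding genes (23.4). The filled pair at 264 is the shared region of F44E5.4 and F44E5.5, and bag-1, hsp-110 and hsp-70 appear in 2 columns. In the prefoldin column Y22D7AL.10 (86.0, filled) has the same region as hsp-60, and pfd-4 (30.5) the same as dnj-2.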

How the data were processed

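The authors deposited 8 lists of regions on ce11, 4 ranked and 4 thresholded, for replicate 1, replicate 2, the replicates against each other and a joint ranking. The aligner and the peak caller are not named in any source used. The signal deposited by the authors is each region's own value, on an unstated scale. The score deposited by the authors rises with reproducibility. The −log10 of the global IDR, deposited by the authors in the ranked lists, was turned back into an IDR. Of 396 joint regions at an IDR of 0.01 or less, 75 were not in the thresholded list. Per the file listing, the thresholded lists derive from 1 further file, not analysed here. No table of reads was used, so depth is unknown and no interval is given.

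Summits were placed on Ensembl release 115 gene models. A replicate's value is the highest region of its own ranked list that overlaps the joint region by 1 bp or more. Surroundings were other ranked joint regions with summits within 10 kb. Copies were counted as alignments, not merged, with blastn 2.17.0, at 100 bp and 80% identity or more. Placement was tested on simulated data. The scripts ran under Python 3.11.15, with pandas 2.3.3 for tables, SciPy 1.17.1 and NumPy 2.4.6 for statistics and matplotlib 3.10.9 for plots. With 2 replicates of 1 group, no test was run, and counts stand beside those of all protein-coding genes. All members were named, with full values for those in any thresholded list and the 10 with the highest joint signal. Members, lists and words were chosen with earlier results of these data known.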

Additional observations from a re-analysis of the deposited data

How the results depend on the processing

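The count of 4 members with a called region stood against 151 of all protein-coding genes. With replicate 1's own list alone it was 2, against 39 of all genes, and with replicate 2's it was 3, against 36. There hsp-60 was in neither list and dnj-13 was missing without replicate 2. It was 2 (bag-1 and dnj-28), against 89 of all genes, when regions nearer to the 5′ end of another gene of any kind were left out. When only protein-coding neighbours counted it was 3, against 109, a setting added after the data were seen. The 10 settings that moved it by less gave 3 to 5. Among them, the narrower window (500 bp before the 5′ end, 100 bp after) lost hsp-60, with 102 of all genes. Single-place regions alone lost dnj-28, with 118 of all genes. At a global IDR of 0.001 the joint thresholded list held 3 members and 37 of all genes. The members' median of 22.7 became 24.1 with the 5′ ends of every transcript, 25.1 with any overlap and 24.5 in the between-replicate ranking, where the medians of all genes were 24.4, 24.8 and 23.7. In 1 replicate's own list it ranged from 14.5 to 16.407, against 13.9 to 15.9 for all genes. Members with a ranked region numbered 35, and 22 to 25 in 1 replicate's own list. Joint signals cannot be set against those of 1 replicate: these were 63.5 to 64.2 at dnj-28, 45.8 to 47.8 at bag-1 and 50.9 at dnj-13 in thresholded lists. Pearson's correlation of replicate signals was 0.902 over members and 0.362 over all genes. Outside the joint thresholded list it was 0.482 over 27 members and 0.175 over all genes. No paired analysis was possible because there was 1 group. The causes were not tested. Unknown depth limits what a missing region can show.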
